A study of Mus musculus with 6 samples.

Results

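The genes described here are the Toll-like receptors and their co-receptors and shared adaptor in lineage-negative (Lin-) cells of a mouse blast crisis chronic myeloid leukemia (bcCML). They are the 7 receptor genes Tlr1, Tlr2, Tlr4, Tlr6, Tlr7, Tlr9 and Tlr13, the lipopolysaccharide co-receptors Cd14 and Ly96, and the adaptor Myd88, chosen by name, and they make up 10 of the 36083 genes in the deposited table. The series holds 6 RNA-seq libraries, 3 labelled WT and 3 labelled Sdc1-/-, and asks how loss of syndecan-1, a cell surface heparan sulfate proteoglycan encoded by Sdc1, alters the transcriptome of this leukemia. In both groups KLS cells (c-Kit+, Lin-, Sca1+ bone marrow stem and progenitor cells) from B6 background donors were transduced with BCR-ABL and NUP98-HOXA9, cells carrying both oncogenes were transplanted into mice that the labels give as NSG, and Lin- bcCML cells were sorted from the spleens once all animals had been killed at the same time. The 2 groups therefore shared both oncogenes, the host strain and the organ, and differed by label in whether the donor was WT or carried the Sdc1-/- allele, in which the signal peptide sequence is disrupted. The lineage antibodies named in the study's methods were directed at T cells, B cells, myeloid cells and erythroid cells, Gr1 and CD11b among them. NSG hosts lack mature B, T and NK cells but keep neutrophils, monocytes and macrophages. By the study's gating description, live cells positive for the surface reporters of both oncogene vectors were selected before the lineage gate, a step that takes away host cells without the vectors. The ages of these particular animals, and whether each library is a separate mouse, are not settled by the labels, so the p-values below measure only the spread between these libraries, which may be technical.

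Toll-like receptors are membrane proteins that recognise conserved microbial molecules through a leucine-rich repeat ectodomain and signal through a cytoplasmic TIR domain. TLR2 pairs with TLR1 or TLR6 at the cell surface to bind bacterial lipopeptides, and TLR4 binds lipopolysaccharide together with MD-2, the product of Ly96, after CD14 has handed the ligand over. TLR7, TLR9 and TLR13 sit in endosomes, where they detect single-stranded RNA, unmethylated CpG DNA and bacterial ribosomal RNA. Nearly all of them signal through the adaptor MYD88 to NF-kB and IRF transcription factors, and in the blood system the receptors are best known from neutrophils, monocytes, macrophages and dendritic cells, although stem and progenitor cells can carry them too.

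Values are TPM (transcript abundance per length, scaled to the library) that the authors rescaled between libraries and a level is given on that linear scale unless it is called a log2 fold change. A log2 fold change is the Sdc1-/- mean minus the WT mean of log2(value + 1), so it understates the change of genes near or below 1. It was tested with limma across the 12155 genes whose mean over the 6 libraries was at least 1, with Benjamini-Hochberg adjustment and a threshold of 0.05. Read depth is unknown, so no counting error can be attached to a level. The Sdc1 transcript, the check of the labels, was at 1.75, 1.21 and 1.51 in the WT libraries and at 3.85, 3.80 and 4.12 in the libraries labelled Sdc1-/-, a log2 fold change of 0.99. It was thus higher where the label gives a knockout, so Sdc1-/- below means only that a library carries this label, and every direction rests on the labels. The Y-linked genes Ddx3y, Eif2s3y, Kdm5d and Uty summed to between 0.276 and 0.308 in the WT libraries and to between 68.1 and 78.4 in the Sdc1-/- libraries, so a difference in the sex of the cells and the difference in genotype cannot be told apart. Of the 12155 genes, 31.3% were called lower and 29.3% were called higher in libraries labelled Sdc1-/-. Their median log2 fold change was -0.01, with quartiles of -0.24 and 0.23. Lower calls were 51.7% of all calls on the authors' scale and 31.1% when each library was set to a sum of 1000000, which moved the median log2 fold change to 0.12.

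All 10 genes had lower levels in libraries labelled Sdc1-/-, and for each of them every Sdc1-/- library lay below every WT library. Such a complete separation downward was seen in 34.2% of genes at or above the minimum mean and in 9.72% of genes under it, and for a single gene it corresponds to an exact two-sided permutation p of 0.1, the smallest that 3 libraries against 3 can give. Of the 10 genes, 7 reached the minimum mean and were tested. Tlr2, Tlr4, Tlr13, Cd14 and Myd88 were called lower, Tlr6 and Ly96 did not pass the threshold, and none was called higher. Tlr1, Tlr7 and Tlr9 were under the minimum and are given by their values. Tlr4 and Cd14 reached the minimum only through their WT level, since their Sdc1-/- means were below 1, so a count over the tested genes says nothing beyond the calls themselves. The libraries are bulk RNA, in which fewer cells that carry a transcript and less transcript per cell cannot be told apart.

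**Figure D1:**
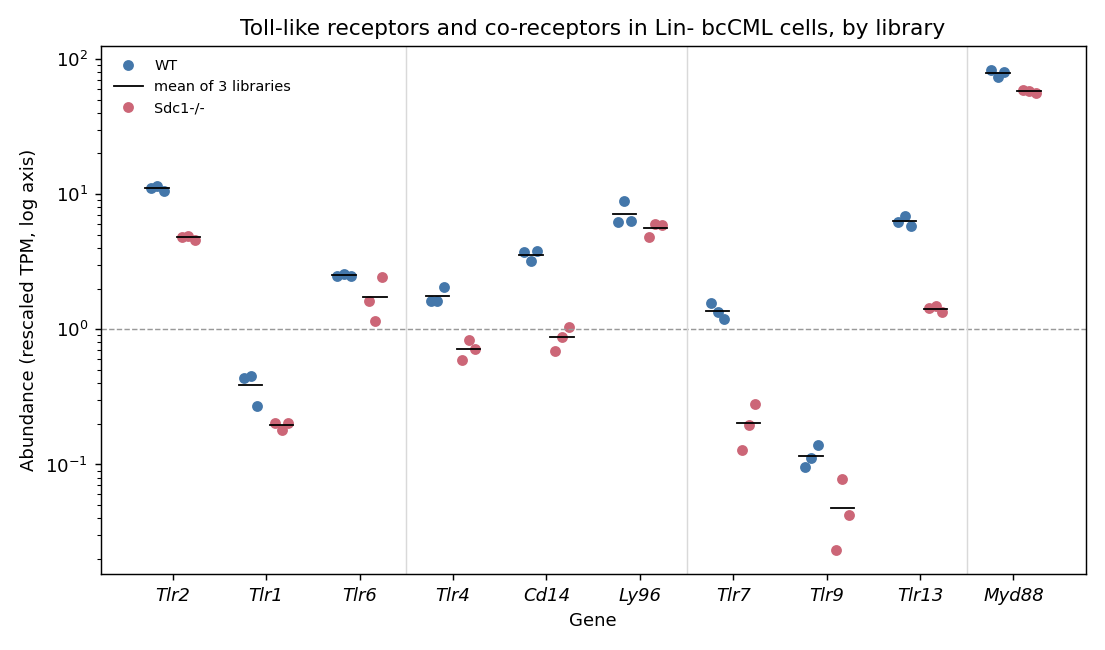
Level of each of the 10 genes in each of the 6 libraries (rescaled TPM, log axis), with 1 point per library, blue for WT and red for Sdc1-/-, a black bar at the mean of 3 libraries and a dashed line at the minimum mean of 1. Each red set lies below its blue set, by the widest step for Tlr7 and Tlr13 and by the narrowest for Tlr6 and Ly96, whose nearest points almost touch.

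Tlr2, the common partner of the lipopeptide receptors, was the most abundant receptor transcript in WT libraries. Its level was 11.2, 11.4 and 10.6 in the WT libraries and 4.84, 4.89 and 4.60 in the Sdc1-/- libraries. The libraries of a group differed by less than 1 unit, and the gap between the groups was several times larger. The mean fell from 11.1 ± 0.447 (SD, n = 3) to 4.78 ± 0.154 (SD, n = 3), 43.2% of the WT level, with a log2 fold change of -1.06 ± 0.0507 (SE) and an adjusted p of 6.38e-06. Only 2.7% of tested genes had a lower log2 fold change than Tlr2. The call held in all 15 alternative fits, with log2 fold changes between -1.19 and -0.93.

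Tlr6, which pairs with TLR2 for diacylated lipopeptides, did not pass the test. It stood at 2.47, 2.58 and 2.46 in WT libraries and at 1.62, 1.15 and 2.45 in libraries labelled Sdc1-/-. The WT libraries were nearly equal, while 1 Sdc1-/- library was just under the lowest WT value and the other 2 were clearly lower. The means were 2.503 ± 0.063 and 1.74 ± 0.656 (SD, n = 3 each), and the log2 fold change of -0.38 had a 95% interval from -0.77 to 0.002 and an adjusted p of 0.078. Without Sdc1-/- replicate 3 the log2 fold change was -0.56, with an adjusted p of 0.00544. The call on Tlr6 thus turned on that library, in which Tlr2 was at the bottom of its group rather than the top. The ratio of Tlr2 to Tlr6 within a library, which a single scaling factor per library cannot alter, was 4.52, 4.43 and 4.28 in WT libraries and 2.99, 4.25 and 1.88 in libraries labelled Sdc1-/-.

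Tlr1, the partner for triacylated lipopeptides, was scarce. It was at 0.440, 0.447 and 0.272 in WT libraries and at 0.202, 0.180 and 0.202 in libraries labelled Sdc1-/-. The lowest WT library came close to the Sdc1-/- libraries without reaching them. The mean went from 0.386 ± 0.099 to 0.195 ± 0.012 (SD, n = 3 each), and in a fit without a minimum mean, where 16.6% of 24714 genes were called lower, the log2 fold change was -0.21 with an adjusted p of 0.0349. At a pseudocount of 0.1 in place of 1 the log2 fold change was -0.70.

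The scarcity of Tlr1 beside Tlr6 matters for how both values read, because the 2 genes lie next to each other on chromosome 5 and share sequence. In GENCODE M21 (GRCm38), Tlr1 spans chr5:64924679-64933563 and Tlr6 chr5:64952031-64960097, both on the minus strand. Of the 31-base words of the annotated Tlr1 transcripts, 18.3% also occur in Tlr6, and 16.4% of the Tlr6 words occur in Tlr1, so that reads from these stretches are divided between the genes by the estimate of kallisto, the program that assigned reads to transcripts. The longest shared run has 229 bases and lies in the coding sequence of both. It covers coding bases 1468 to 1696 of 2385 in Tlr1 (transcript Tlr1-202, chr5:64925537-64925765) and coding bases 1507 to 1735 of 2418 in Tlr6 (transcript Tlr6-201, chr5:64953828-64954056). The run is printed once, 5′ to 3′ on the minus strand of GRCm38, because a read of 75 bases that falls wholly within it fits either receptor:
Tlr1 and Tlr6 shared run: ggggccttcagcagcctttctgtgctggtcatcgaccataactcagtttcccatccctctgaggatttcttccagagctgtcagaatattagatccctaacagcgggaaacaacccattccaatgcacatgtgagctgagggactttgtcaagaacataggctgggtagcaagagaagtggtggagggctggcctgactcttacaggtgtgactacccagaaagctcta
The sum of the 2 genes, which depends less on that division, was 2.91, 3.02 and 2.74 in WT libraries and 1.82, 1.33 and 2.65 in libraries labelled Sdc1-/-. The groups stayed apart by a small margin, with Sdc1-/- replicate 3 the nearest to the WT libraries. Tlr2, Tlr7, Tlr9, Tlr13 and Cd14 shared no 31-base word with another annotated gene.

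The transcripts of the lipopolysaccharide receptor complex differed between the groups to unequal degrees. Cd14, which delivers lipopolysaccharide to the receptor and also assists TLR2 and the endosomal receptors, was at 3.70, 3.21 and 3.77 in WT libraries and at 0.693, 0.883 and 1.03 in libraries labelled Sdc1-/-. The lowest WT library was well above the highest Sdc1-/- library. The mean fell from 3.56 ± 0.302 to 0.870 ± 0.170 (SD, n = 3 each), 24.5% of the WT level, with a log2 fold change of -1.29 ± 0.0945 (SE) and an adjusted p of 3.76e-05. Tlr4, the signalling chain, was at 1.61, 1.61 and 2.05 in WT libraries and at 0.589, 0.837 and 0.714 in libraries labelled Sdc1-/-. Each Sdc1-/- library fell short of 1, and all WT libraries exceeded it. The mean fell from 1.75 ± 0.253 to 0.713 ± 0.124 (SD, n = 3 each), 40.7% of the WT level. The log2 fold change was -0.68 ± 0.1 (SE) with an adjusted p of 0.000973. Both calls held in the 14 alternative fits that could test them, from -1.93 to -1.195 for Cd14 and from -1.19 to -0.61 for Tlr4, the lowest of each at a pseudocount of 0.1.

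Ly96, whose product MD-2 forms the lipopolysaccharide pocket with TLR4, was more abundant than either and did not pass the test. It was at 6.21, 8.83 and 6.32 in WT libraries and at 4.78, 6.004 and 5.94 in libraries labelled Sdc1-/-. WT replicate 2 stood above the rest, and the other 2 WT libraries were within 0.4 of the highest Sdc1-/- library. The means were 7.12 ± 1.49 and 5.58 ± 0.690 (SD, n = 3 each), and the log2 fold change of -0.29 had a 95% interval from -0.62 to 0.03 and an adjusted p of 0.103. Without WT replicate 2 the log2 fold change was -0.15, with an adjusted p of 0.242. Within a library, Ly96 was 3.86, 5.499 and 3.09 times the Tlr4 level in WT libraries and 8.12, 7.17 and 8.33 times in libraries labelled Sdc1-/-. Cd14 was 2.30, 1.999 and 1.84 times Tlr4 in WT libraries and 1.18, 1.06 and 1.45 times in libraries labelled Sdc1-/-. Neither ratio overlapped between the groups, and they moved in opposite directions, so the transcripts of the 3 genes stood in different proportions in the 2 groups. The ratios were not tested, and the Tlr4 level that divides them was below 1 in each library labelled Sdc1-/-. Protein was not measured in these libraries.

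Tlr13, the endosomal receptor for bacterial 23S ribosomal RNA and a gene of mice that humans lack, had the lowest log2 fold change of the tested genes in this family. It was at 6.16, 6.84 and 5.83 in WT libraries and at 1.43, 1.496 and 1.35 in libraries labelled Sdc1-/-. The WT libraries put it beside Ly96 as one of the more abundant transcripts of the family, whereas the Sdc1-/- libraries put it beside Tlr6. The mean fell from 6.28 ± 0.512 to 1.42 ± 0.074 (SD, n = 3 each), 22.7% of the WT level, with a log2 fold change of -1.58 ± 0.0715 (SE) and an adjusted p of 4.93e-06. Of all tested genes, 0.7% had a lower log2 fold change, and across 14 alternatives the value ran from -2.06 to -1.48.

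Tlr7, the endosomal receptor for single-stranded RNA, showed the widest ratio of the 10 genes but at a low level. It was at 1.57, 1.35 and 1.19 in WT libraries and at 0.128, 0.197 and 0.279 in libraries labelled Sdc1-/-. All WT libraries lay above 1, and the mean over all 6 libraries was 0.787, so the gene was under the minimum for testing. The means were 1.37 ± 0.190 and 0.201 ± 0.075 (SD, n = 3 each), a ratio of 6.82, and without a minimum mean the log2 fold change was -0.98 with an adjusted p of 0.000542. At a pseudocount of 0.1 the log2 fold change was -2.31. The ratio of Tlr7 to Tlr13 was 0.255, 0.198 and 0.205 in WT libraries and 0.090, 0.132 and 0.206 in libraries labelled Sdc1-/-, which overlap.

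Tlr9, the endosomal receptor for CpG DNA, was close to absent in both groups. It was at 0.0957, 0.111 and 0.139 in WT libraries and at 0.0232, 0.0776 and 0.0426 in libraries labelled Sdc1-/-. The highest Sdc1-/- library lay just under the lowest WT library, at a level where the unknown read depth sets how firm a value can be. In the fit without a minimum mean the log2 fold change was -0.09 with an adjusted p of 0.045.

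Tlr7 and Tlr13 are on the X chromosome, at chrX:167304929-167330558 and chrX:106143204-106160493. Over the 399 tested X-linked genes with coordinates the median log2 fold change was -0.02 and 29.3% were called lower, beside a median of -0.01 and 31.8% lower over 11154 autosomal genes. These medians describe the chromosomes and not either receptor gene, and the part of the sex of the cells in the levels of Tlr7 and Tlr13 cannot be told apart from the genotype.

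Promoter sequence was available for 6 of the 10 genes, Tlr1, Tlr2, Tlr6, Tlr9, Tlr13 and Myd88, in the RefSeq table (GRCm38.p6). In the 250 bases before each annotated start, 5 short motifs were searched on both strands. They were the purine-rich core bound by PU.1, a myeloid transcription factor (PU box, GAGGAA), the AP-1 site TGANTCA, the C/EBP core TTGCNNAA, the interferon response element GAAANNGAA and the NF-kB site GGANTTTCC. The PU box was found in Tlr1, Tlr9 and Tlr13 and in 25.9% of 27025 genes. The AP-1 site was found in Tlr9 and in 7.82% of genes, the C/EBP core in Tlr6 and in 10.8%, the interferon element in Tlr6 and Myd88 and in 8.18%, and the NF-kB site in none of the 6 and in 1.25% of genes. The interferon element of Tlr6 had 2 matches that overlap each other, and no other matches in these windows overlapped. The windows with a PU box are printed 5′ to 3′ on the gene's strand, limited to bases outside annotated exons and with the PU box in capitals, because they set the gene with the largest tested difference beside 2 genes that were scarce in both groups:
Tlr13, chrX:106143025-106143203, plus strand: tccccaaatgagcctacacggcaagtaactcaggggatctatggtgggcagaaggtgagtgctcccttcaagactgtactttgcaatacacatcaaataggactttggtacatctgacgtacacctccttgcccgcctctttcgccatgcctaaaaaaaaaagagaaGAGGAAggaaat
Tlr1, chr5:64933564-64933808, minus strand: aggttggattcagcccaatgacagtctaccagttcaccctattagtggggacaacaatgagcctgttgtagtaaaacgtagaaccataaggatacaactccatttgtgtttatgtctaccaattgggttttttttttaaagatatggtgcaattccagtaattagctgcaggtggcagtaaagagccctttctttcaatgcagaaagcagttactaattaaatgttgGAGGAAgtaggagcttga
Tlr9, chr9:106222348-106222597, plus strand: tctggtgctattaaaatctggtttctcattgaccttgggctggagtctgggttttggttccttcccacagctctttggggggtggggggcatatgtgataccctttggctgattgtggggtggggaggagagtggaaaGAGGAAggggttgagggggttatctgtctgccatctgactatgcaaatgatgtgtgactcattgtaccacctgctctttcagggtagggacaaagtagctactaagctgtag
The first base of the PU box lies 83 bases before the RefSeq start in Tlr13, 23 before it in Tlr1 and 112 before it in Tlr9. A match is a run of letters and not a measured binding site. All 10 genes were lower in libraries labelled Sdc1-/-, so direction cannot set genes with a match apart from genes without. A role of these motifs was not tested.

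Myd88, the adaptor that links nearly all of these receptors to the IRAK kinases, was the most abundant transcript of the group by far and the one that changed least among those called. It was at 82.7, 73.7 and 80.2 in WT libraries and at 59.0, 57.7 and 55.4 in libraries labelled Sdc1-/-. The groups were clear of each other, by more than the range within either. The mean fell from 78.9 ± 4.67 to 57.4 ± 1.82 (SD, n = 3 each), 72.8% of the WT level, with a log2 fold change of -0.45 ± 0.05 (SE) and an adjusted p of 0.000256. Across 15 alternatives it stayed called, between -0.50 and -0.30, the weakest with each library set to a sum of 1000000. Myd88 overlaps 2 annotated genes. Slc22a14 lies on the same strand and shares no 31-base word with it. Acaa1a, a peroxisomal thiolase gene, lies on the opposite strand, and 8.93% of the 31-base words of Myd88 occur there in antisense. Acaa1a was at 26.6, 23.1 and 26.1 in WT libraries and at 34.7, 36.0 and 32.7 in libraries labelled Sdc1-/-, the opposite direction. The libraries were made with a strand-keeping kit, but the strand setting of the read assignment is not stated, so the part that shared words had in either value was not tested.

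**Figure D2:**
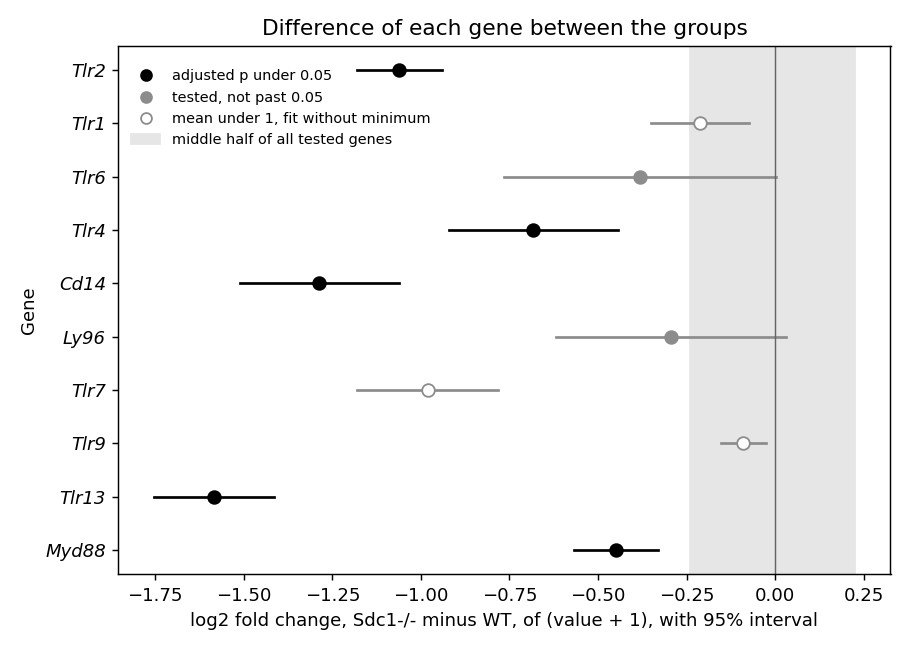
Log2 fold change of each of the 10 genes (Sdc1-/- minus WT, of value + 1) with its 95% interval from limma. Filled black points passed an adjusted p of 0.05, grey points (Tlr6, Ly96) were tested and did not, open points (Tlr1, Tlr7, Tlr9) come from the fit without a minimum mean, and the grey band spans the quartiles of all tested genes, -0.24 to 0.23. Tlr13, Cd14 and Tlr2 lie at -1 or below, and the intervals of Tlr6 and Ly96 reach 0.

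By size, Tlr2, Tlr13 and Cd14 fell at least 2-fold on the log2(value + 1) scale, a step called for 2.92% of all tested genes. That scale shrinks the change of scarce genes. As a ratio of linear means, Tlr4 (2.46), Tlr7 (6.82) and Tlr9 (2.41) also passed 2-fold, beside 2.31 for Tlr2. Cd14 was among the tested genes only through its WT level, so it could enter only as a lower gene. In order of level, the WT libraries had Myd88, Tlr2, Ly96, Tlr13, Cd14, Tlr6, Tlr4, Tlr7, Tlr1 and Tlr9. Only Ly96 and Tlr13 overlapped among neighbours in that order. The libraries labelled Sdc1-/- had Myd88, Ly96, Tlr2, Tlr6, Tlr13, Cd14, Tlr4, Tlr7, Tlr1 and Tlr9, and there Ly96 overlapped Tlr2, Tlr6 overlapped Tlr13, Cd14 overlapped Tlr4 and Tlr7 overlapped Tlr1.

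The 7 receptor transcripts together summed to 23.5, 24.4 and 22.5 in WT libraries and to 8.83, 8.83 and 9.63 in libraries labelled Sdc1-/-. Their make-up also differed. The endosomal receptors Tlr7, Tlr9 and Tlr13 contributed 33.3%, 34.1% and 31.9% of the sum in WT libraries and 17.9%, 20.1% and 17.3% in libraries labelled Sdc1-/-. The lipopeptide receptors Tlr1, Tlr2 and Tlr6 contributed 59.9%, 59.3% and 59.1% in WT libraries and 75.5%, 70.5% and 75.3% in libraries labelled Sdc1-/-. Tlr4 held a similar share, 7.51% ± 1.38 in WT libraries and 7.86% ± 1.46 in libraries labelled Sdc1-/- (SD, n = 3 each), and its libraries overlapped. Myd88 was 3.52, 3.03 and 3.56 times the receptor sum in WT libraries and 6.69, 6.54 and 5.75 times in libraries labelled Sdc1-/-. These shares and ratios are taken within a library and were not tested.

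**Figure D3:**
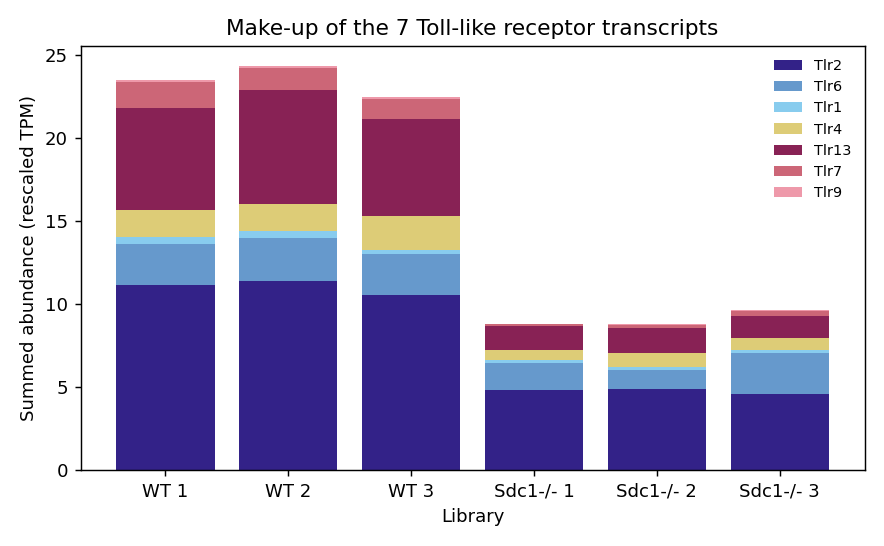
Stacked level of the 7 receptor transcripts in each library (rescaled TPM, linear axis from 0), with 1 bar per library and 1 colour per gene. The WT bars reach 22.5 to 24.4 and the Sdc1-/- bars 8.83 to 9.63, and the top segments of Tlr13, Tlr7 and Tlr9 hold a mean of 33.1% of the WT bars and 18.4% of the Sdc1-/- bars.

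The other genes of the pathway were described in 7 lists of 110 genes in the table, of which 88 were tested. Of these 88 genes, 51 were lower and 15 were higher, beside 31.3% lower and 29.3% higher among all tested genes, and the median was -0.22 on the log2 scale. With each library set to a sum of 1000000, 23 were called higher. Among the other receptors and partners, all 4 tested genes were lower, with a median log2 fold change of -0.78. They were Lbp, the carrier of lipopolysaccharide in serum (10.4 ± 0.901 to 3.65 ± 0.387, log2 fold change -1.29), Ly86, which encodes MD-1 (2.41 ± 0.057 to 0.536 ± 0.033, -1.15), its receptor Cd180 (3.95 ± 0.344 to 2.71 ± 0.180, -0.41) and the scavenger receptor Cd36 (14.8 ± 1.39 to 12.0 ± 1.53, -0.29). Ly86 reached the minimum mean only through its WT level, so it could enter the count only as a lower gene. The Cd36 libraries overlapped between groups, and its call, at an adjusted p of 0.0422, was lost in 7 alternatives. The 5 receptors Tlr3, Tlr5, Tlr8, Tlr11 and Tlr12, named after their values were seen, each had a mean under 0.5 in both groups.

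Of the genes that escort receptors to endosomes or trim them there, 10 were tested, 7 were lower and 1 was higher, and their median was -0.28 on the log2 scale. Unc93b1, the chaperone that carries the nucleic acid-sensing receptors to endosomes, fell from 18.9 ± 0.564 to 11.4 ± 0.406 (SD, n = 3 each), a log2 fold change of -0.69 with an adjusted p of 2.05e-05. Ctsl, a protease that cleaves their ectodomains, fell from 34.4 ± 0.939 to 14.0 ± 0.733, a log2 fold change of -1.24. The endosomal exonucleases Pld3 and Pld4, which digest single-stranded nucleic acids, fell by 0.86 and 0.85 on the log2 scale. Higher calls numbered 3 with each library set to a sum of 1000000 or after quantile normalization, and 2 after median-of-ratios scaling. The gene that rose on the authors' scale was Hsp90b1, which encodes the endoplasmic reticulum chaperone GP96 that folds the receptors, from 238 ± 13 to 320 ± 9.59, a log2 fold change of 0.43. Unc93b1, Ctsl and Tlr13 were lower in the same libraries in which Hsp90b1 was higher, and a link between these levels was not tested.

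The signalling relay downstream of MYD88 was mixed. Of 21 tested adaptors, ligases and kinases, 8 were lower and 6 higher, and their median of -0.05 was close to that of all genes. The one past 1.5-fold on the log2(value + 1) scale was Pik3ap1, the adaptor BCAP that couples the receptors to PI3K, which fell from 8.16 ± 0.321 to 4.06 ± 0.158, a log2 fold change of -0.85 with an adjusted p of 1.81e-05. Tirap, the sorting adaptor that brings MYD88 to TLR2 and TLR4, was past it on the linear scale only and fell from 4.72 ± 0.290 to 3.11 ± 0.229 (SD, n = 3 each), a log2 fold change of -0.48 with an adjusted p of 0.000875. With each library set to a sum of 1000000, 5 of the list were lower and 8 higher, and with a minimum mean of 5, 6 were lower and 7 higher, so the balance of the list turned with the setting. The abundant ubiquitin-conjugating pair split, Ube2n at 0.13 and Ube2v1 at -0.14, and the sign of Ube2v1 turned to 0.01 with each library set to a sum of 1000000. Irak1 was at 43.8 ± 0.339 and 46.9 ± 1.57 and did not pass the threshold.

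Among 12 tested negative regulators, 7 were lower and 2 higher, with a median of -0.22. Cd300a, an inhibitory receptor, fell by 1.199 on the log2 scale and Il1rl1, which encodes the interleukin-33 receptor ST2 and is carried by mast cells and basophils among others, by 0.84. Tnip3, a partner of the deubiquitinase A20, rose from 8.68 ± 0.665 to 15.6 ± 0.702, a log2 fold change of 0.78 with an adjusted p of 5.66e-05. Of 11 tested transcription factors and their inhibitors, 4 were lower and 1 was higher, with a median of -0.10. Nfkbia, which encodes the NF-kB inhibitor IkBa and is itself an NF-kB target, fell from 68.8 ± 4.64 to 32.9 ± 0.701, a log2 fold change of -1.04. Irf5, which acts below MYD88, fell by 0.62, while Irf3, the factor of the TRIF branch, rose from 38.1 ± 3.96 to 68.0 ± 1.23, a log2 fold change of 0.82. Nfkb1 was the most abundant of the list, at 165 ± 5.52 and 162 ± 3.54, with a log2 fold change of -0.02 that did not pass and whose sign turned under 2 other scalings.

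Of the genes known to be induced by these receptors, 11 of 20 were tested, 9 were lower and 1 was higher, and their median was -0.83 on the log2 scale. Ccl5 fell most, from 39.6 ± 1.21 to 10.2 ± 1.65, a log2 fold change of -1.87 with an adjusted p of 1.06e-05. Il1rn, the interleukin-1 receptor antagonist, fell by 1.54, Il6 by 1.201, the chemokines Ccl3 and Ccl4 by 1.18 and 0.93, Il1b by 0.83 and Ier3 by 0.64. Tnf, named after its values were seen, was the tested gene that rose, from a low 1.07 in WT libraries to 1.85 in libraries labelled Sdc1-/-, a log2 fold change of 0.46. Nfkbiz, which encodes the NF-kB cofactor IkBζ and was also named after its values were seen, was under the minimum mean. It was at 0.441 ± 0.017 in WT libraries and 1.01 ± 0.055 in libraries labelled Sdc1-/- (SD, n = 3 each). In the fit without a minimum its log2 fold change was 0.48 with an adjusted p of 0.000623. That fit called 11 genes of the list lower and 2 higher, beside 4091 lower and 3931 higher among 24714 genes. Il10, also under the minimum mean and named after its values were seen, fell from 1.26 ± 0.157 to 0.331 ± 0.118 (SD, n = 3 each). Its log2 fold change in that fit was -0.76 with an adjusted p of 0.00183.

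Of 19 tested sensors outside the family, 12 were lower and 4 higher, with a median of -0.42. The formyl peptide receptors Fpr2 and Fpr1 fell by 1.67 and 1.22 on the log2 scale, the myeloid signalling adaptor Tyrobp from 212 ± 5.51 to 70.5 ± 2.56 (log2 fold change -1.57), and the C-type lectins Clec4n and Clec7a by 1.19 and 0.81. Trem1, Nod1 and Tmem173 fell by 0.95, 0.74 and 0.70. The 4 higher genes, named after their values were seen, were Ddx58, Ifih1, Mavs and Cgas, the cytosolic RNA receptors RIG-I and MDA5, their adaptor and the cytosolic DNA sensor, at log2 fold changes between 0.22 and 0.31. Nod1 and Clec7a reached the minimum mean only through their WT level, since their means in libraries labelled Sdc1-/- were 0.770 and 0.489.

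**Figure D4:**
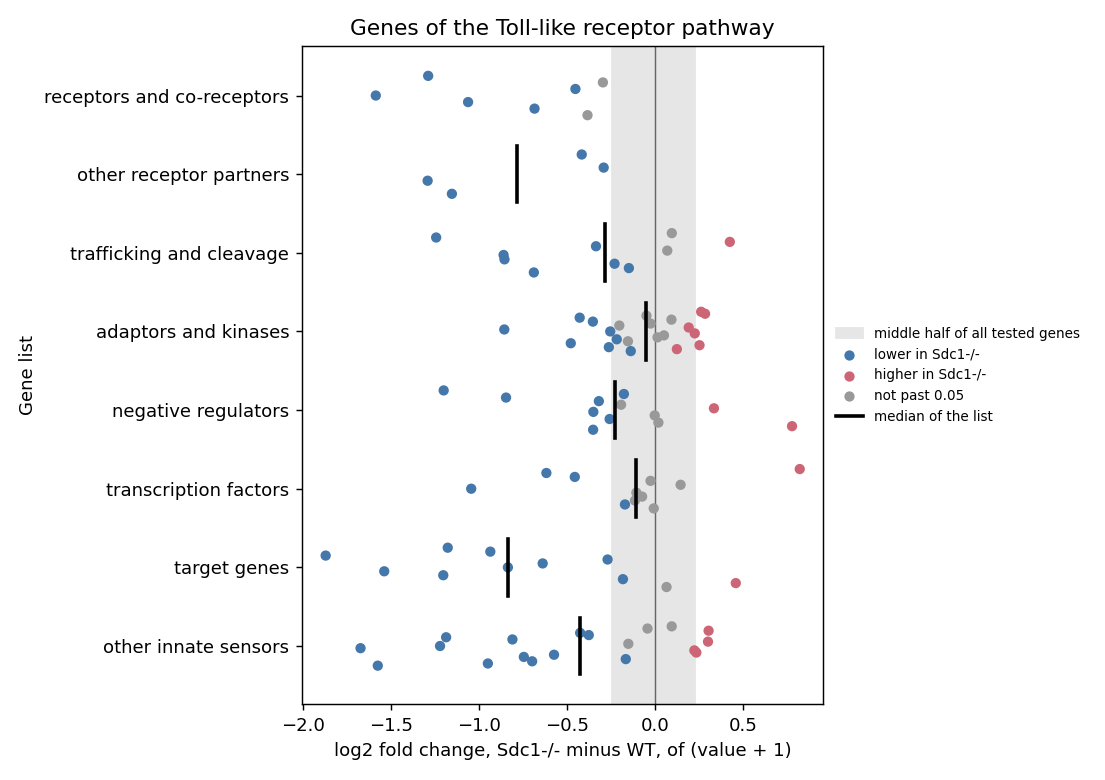
Log2 fold change (Sdc1-/- minus WT, of value + 1) of each tested gene of the receptor family and of 7 pathway lists, with 1 point per gene, blue for called lower, red for called higher and grey for not called, a black line at the median of each pathway list and a grey band between the quartiles of all tested genes. The medians run from -0.83 for target genes and -0.78 for other receptor partners to -0.05 for adaptors and kinases.

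Most markers of neutrophils, monocytes and macrophages, mast cells and basophils, and erythroid cells were lower in the same libraries as the receptors. Each count of markers called, here and for the progenitor list below, stands beside 31.3% lower and 29.3% higher among all tested genes. All 10 neutrophil markers were lower, and their summed level ran from 12670 to 13620 in WT libraries and from 4591 to 4734 in libraries labelled Sdc1-/-. Of 12 monocyte and macrophage markers, 10 were tested, 8 were lower and 1 was higher, and their sum ran from 557 to 578 and from 252 to 262. Csf1r and C1qb reached the minimum mean only through their WT level, so they could enter that count only as lower genes. All 6 mast cell and basophil markers were lower, with sums from 564 to 573 and from 251 to 254. Of 5 tested dendritic cell markers, 2 were lower and 2 were higher, with sums from 131 to 138 and from 146 to 148, and Siglech, Clec9a and Xcr1 were near 0 in both groups. Erythroid markers gave 6 lower and 1 higher of 7 with sums from 9477 to 10180 and from 5249 to 5650, and megakaryocyte markers 4 lower and 1 higher of 5 with sums of 496 to 523 and 498 to 510.

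Of the 7 B cell markers 2 were tested and neither was called, with Cd79a, Ms4a1 and Pax5 near 0. Of the 8 T and NK cell markers only Klrb1c was tested, at means of 7.025 and 6.374 in WT and Sdc1-/- libraries, and it was not called. The sums of that list ran from 7.196 to 8.11 and from 6.905 to 7.374, and Cd3e was listed at 0 in all WT libraries. Genes of the surface proteins used for lineage depletion were still measured, with Ly6g at 8.77 and 1.97 and Itgam at 23.6 and 7.33 in WT and Sdc1-/- libraries. The progenitor list was split, with 4 genes higher and 5 lower of 9, among them Meis1 at a log2 fold change of 1.07 and the granule protease gene Elane at -0.70. The neutrophil, monocyte and macrophage, mast cell and basophil, and erythroid sums thus differed in the same direction as the receptor sum. So did the progenitor sum, 1289 to 1391 in WT and 1003 to 1025 in Sdc1-/- libraries. The dendritic cell sum went the other way, and the megakaryocyte sums overlapped. The part of any cell type in the level of a Toll-like receptor was not tested.

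**Figure D5:**
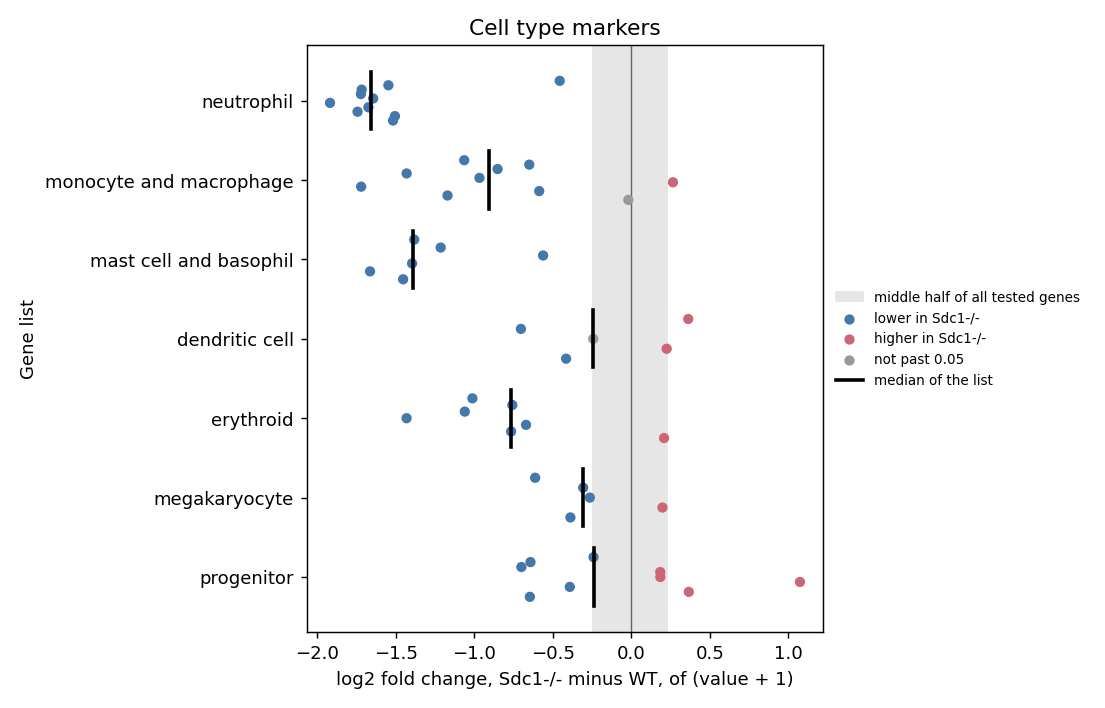
Log2 fold change (Sdc1-/- minus WT, of value + 1) of each tested gene in 7 marker lists, with 1 point per gene, blue for called lower, red for called higher and grey for not called, a black line at the median of each list and a grey band between the quartiles of all tested genes. All neutrophil and mast cell and basophil points lie left of 0, with medians of -1.66 and -1.39, while progenitor points lie on both sides.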

How the data were processed

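The samples were Lin- bcCML cells, 3 RNA-seq libraries from WT leukemia and 3 from Sdc1-/- leukemia, assigned by GEO's labels, whose trailing number served as the replicate. Per the labels, a stranded mRNA kit was used and reads were single-end and 75 bases long. The submitters' processing notes name kallisto, sleuth 0.30.0 and mm10. The version of kallisto is not given in the sources used here. The values the authors deposited are a signal for each gene, namely kallisto TPM after a rescaling between libraries, and library sums ran from 944973 to 1058263. Read depth is unknown and TPM keeps none of it. A second deposited table holds the p-values, q-values, effect sizes and variances of the authors' own comparison and was not used. A legend of the study calls the WT libraries technical replicates.

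Each gene was fitted on log2(value + 1) with limma 3.58.1 (R 4.3.3) by group alone, with a variance trend. The 12155 genes averaging 1 or more entered, and p-values were adjusted by Benjamini-Hochberg at 0.05. The planned test was written for TPM and was not altered for rescaled values. It was tested on simulated data first. Alternatives changed the pseudocount (0.1, 0.5), the minimum mean (none, 5), the scaling between libraries, the variance trend and the replicate block, or left out 1 library. Under a shared replicate number, deviations from the group means correlated at 0.15, -0.01 and 0.02, so the numbers were not taken to pair libraries.

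The 10 genes and all lists were chosen with earlier results of these data known. All 10 were named, and of each list the genes called with at least 1.5-fold change and the 3 with the highest mean could be named. Of 204 list genes, 203 were found. The 1 not found was Xist of the sex genes, so the sex of the cells was read from Y-linked genes alone. Single values of some marker genes are not reported here. Shared words of 31 bases were counted over GENCODE M21 transcripts, and promoter windows came from RefSeq GRCm38.p6. Positions come from GENCODE M21 (GRCm38). Tables and figures were made with matplotlib 3.10.9, pandas 2.3.3 and numpy 2.4.6 under Python 3.11.15.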

Additional observations from a re-analysis of the deposited data

How the results depend on the processing

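For the 10 genes, 125 values were computed under up to 15 alternatives. None reversed, and no tested gene lost its call. Tlr1, Tlr7 and Tlr9 had no call to lose, and for them only the pseudocount and the left-out library were varied here. Of the 125 values, 6 untested ones (Tlr1, Tlr7 and Tlr9 at other pseudocounts) moved by more than the spread between replicates. Another 2, Tlr6 without Sdc1-/- replicate 3 and Ly96 with the replicate block, gained a call, while 117 did neither. Without a minimum mean 8 of the 10 were called lower, Tlr1, Tlr7 and Tlr9 among them. With a minimum mean of 5 only 2 were still tested and called, because fewer genes enter that fit. With each library set to a sum of 1000000, 2380 genes in all were called lower and 23 pathway genes were called higher, and the log2 fold change of Ube2v1 turned to 0.0117 and that of Nfkb1 to 0.1237, while quantile normalization gave 0.0329 for Nfkb1. Leaving out 1 library gave 5 to 6 of the 10 genes called lower. With the replicate block 6 were called lower, the addition being Ly96 at -0.29 (adjusted p = 0.0399), and 53 pathway genes were lower and 16 higher. Same-numbered libraries were not shown to be paired. The same was done for the 10 genes, the list genes named by the rule, Sdc1 and the Y-linked genes together. Of these 818 values, 18 lost their call, 8 gained one, 3 reversed and the same 6 changed in size, while 783 did none of these. Genes named on other grounds, such as Tirap, Tnf, Nfkbiz and Ifih1, were not among them. Depth is unknown, so the firmness of levels below 1 cannot be stated, and 3 libraries a group that may be technical limit every test.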
